A study of Mus musculus with 22 samples.

Results

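Rcan1, Srxn1 and Hspa14 are 3 stress response genes that were measured here in mouse cerebellar Purkinje cells (PCs), with and without the gene Tsc1. They are 3 of the 66494 loci in each of the 2 deposited tables, and they were chosen by name because earlier results of these data showed them higher in ribosome-bound RNA of untreated mutant PCs. That contrast and every measure that uses the same untreated mutant libraries are therefore given as a description, with no test. The 2 readouts outside that contrast were tested, namely total RNA of sorted PCs, and ribosome-bound RNA under rapamycin. The study also listed the genes for their change in ribosome-bound RNA relative to total RNA, so total RNA had a part in that listing.

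Mutant PCs came from Tsc1 fl/fl L7Cre mice and control PCs from Tsc1 +/+ mice. The methods give L7Cre for both genotypes. The study's legend for the sorting gates instead names the sorted controls as Tsc1 +/+ L7GFP, with no L7Cre. Whether Cre was matched between the sorted groups is therefore uncertain. The labels give only CC or WW as genotype, and reading CC as the mutant follows the study's naming and was not checked on Tsc1 itself. They give C57BL/6 as strain background for each library, while the methods give C57BL/6J for the reporter lines and no background for the Tsc1 line. L7 (Pcp2) is a promoter active in PCs, so Cre and the reporters acted in these cells. For total RNA, GFP-positive PCs of L7GFP mice were sorted by flow cytometry, with 5 mutant and 5 control libraries; the methods give P21 or P42 as the age of the mice, and the labels do not say which library had which age. For translating ribosome affinity purification (TRAP), which pulls down ribosomes tagged with RPL10A-EGFP together with the RNA they hold, L7Cre switched on the Rosa26fsTRAP reporter in both genotypes. TRAP had 3 libraries each of control, mutant, control with rapamycin and mutant with rapamycin; their ages and the dose of rapamycin are not given in the sources used here.

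TSC1 restrains the kinase complex mTORC1, which promotes translation, and rapamycin inhibits that complex. Each of the genes belongs to a different arm of the stress response. Rcan1 encodes a regulator of calcineurin, the calcium-dependent phosphatase that activates NFAT transcription factors, and its shorter isoform starts from an internal promoter that NFAT itself drives. Srxn1 encodes sulfiredoxin, which restores over-oxidized peroxiredoxins and is a target of the antioxidant factor NRF2. Hspa14 encodes an HSP70 family chaperone that works with DNAJC2 at the ribosome on newly made proteins.

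All 3 genes were found in both tables under a single locus. In GRCm38, Rcan1 (XLOC_023985) lies on chromosome 16 from 92391953 to 92470867 on the minus strand. The annotation gives it 7 transcripts, of which 5 are protein coding. The transcript paired with the locus is a coding one that begins at 92400077, at the internal start. Srxn1 (XLOC_031809) lies on chromosome 2 from 152105516 to 152111376 on the plus strand, and its locus is paired with a noncoding processed transcript that ends at 152109211, while the coding transcript runs from 152105524 to 152111376. Hspa14 (XLOC_032240) lies on chromosome 2 from 3488850 to 3512814 on the minus strand, and its assembled transcript shares splice junctions with the coding one without matching it in full. The deposited values add all transcripts of a locus, so isoforms cannot be told apart here. Another coding gene, Gm45902, overlaps Hspa14 on the same strand, and an antisense gene, Gm46555, overlaps Rcan1, so the assignment of reads in the shared stretches is uncertain.

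The stretches before the start sites are shown for the genes' regulatory letters, in RefSeq's sequence of GRCm38.p6, written from 5′ to 3′ on the gene's own strand. RefSeq held 4 windows for the genes, a pair of them for Rcan1, each of 250 bases before and 50 bases after a start. Capitals mark matches, on either strand, to TGANTCAGC (the letters of an antioxidant response element, which include those of an AP-1 site), GGAAAA (the NFAT core) or TGACGTCA (the cAMP response element). The letters were chosen after the sequences had been seen.

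Srxn1, chr2:152105404-152105503, plus strand: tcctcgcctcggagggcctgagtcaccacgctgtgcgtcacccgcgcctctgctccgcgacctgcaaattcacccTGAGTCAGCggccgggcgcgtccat

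Rcan1 internal start, chr16:92400189-92400308, minus strand: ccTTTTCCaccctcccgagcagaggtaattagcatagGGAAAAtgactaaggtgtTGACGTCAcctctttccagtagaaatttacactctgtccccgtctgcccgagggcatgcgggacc

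Hspa14, chr2:3512835-3512934, minus strand: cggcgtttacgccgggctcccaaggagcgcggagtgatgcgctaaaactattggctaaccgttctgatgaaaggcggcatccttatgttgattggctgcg

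The Srxn1 window held the letters TGAGTCAGC, beginning 45 bases before the start, and 1.19% of the 32851 promoter windows in the table hold a match to that motif. The window of the internal Rcan1 start held the NFAT core at 228 and 193 bases before the start and the cAMP response element at 175 bases. Of all windows, 23.4% hold the NFAT core and 1.79% the cAMP response element. The window of the upstream Rcan1 start held neither, but it held GAACGTTC, a match to the heat shock element GAANNTTC, 107 bases before its start (7.86% of all windows). No match to any of these 4 motifs was found in the Hspa14 window, which says only that these letters are not in it.

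The deposited values are fragments divided by a size factor for each library, and sorted and TRAP libraries were scaled separately. Depth was 43.3 to 86.3 M fragments in sorted and 2.47 to 6.38 M in TRAP libraries, so that a member rested on 1830 to 5879 fragments in a sorted library and on 4 to 500 in a TRAP library. Only submission MS3005 holds sorted libraries of both genotypes. The library of untreated mutant 3 in TRAP stood apart, with a deposited total of 0.861 M against 3.01 to 5.84 M in the other 11. The 10 highest loci took 40.5% of it, against 58.3% to 72.6% of the others. Purkinje cell markers were found in every library, with no marker of the 11 at 0.

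In total RNA of sorted PCs, no member differed between genotypes beyond the spread of the libraries. Rcan1 had values of 3173, 4520.3, 3946, 3565 and 2659.7 in mutants 103, 167, 191, 61 and 74. In controls 144a, 144b, 176, 45 and 48 it had 3889, 3766, 3632, 2464 and 4440.3. Libraries 144a and 144b share an animal number, so the 5 control libraries may come from fewer animals. The main fit treated them as separate. The lowest value belonged to a control and the highest to a mutant, so the groups overlapped over almost their whole range. The mean was 3573 ± 713 (SD, n = 5) in mutants and 3638 ± 725 (SD, n = 5) in controls, and the log2 difference was -0.02 (standard error 0.21, 95% interval -0.49 to 0.44, limma adjusted p = 0.964).

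Hspa14, the ribosome-associated chaperone, overlapped as fully. Its values were 2688, 3368, 3213, 3113 and 2684 in the mutants and 3049, 2950.1, 2515, 3824 and 2684 in the controls, in the same order of libraries. All 5 mutants lay within the range of the controls. The log2 difference was 0.01 (standard error 0.16, 95% interval -0.34 to 0.37, limma adjusted p = 0.973).

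Srxn1, the sulfiredoxin gene, was the one with lower values in mutants. It had 1943, 3808, 3375, 2647 and 3059 in the mutants and 3759, 3432, 2853, 5589 and 4846 in the controls. Mutant 103 was the lowest library and controls 45 and 48 were the highest, while the others overlapped. The log2 difference was -0.46 (standard error 0.24, 95% interval -1.01 to 0.08, limma adjusted p = 0.477). None of the 3 genes passed an adjusted p of 0.05, as did 0 of the 16455 genes tested (percent called 0), while 1861 genes (11.3%) had an unadjusted limma p under 0.05, none of them a member.

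The 3 lowest mutant values of Srxn1 belonged to a submission that holds 1 genotype. In MS2723, all mutant, Srxn1 ranged from 1943 to 3059, and in MS2872, all control, from 3432 to 5589. Genotype and submission cannot be told apart in these libraries. The share of all genes that separate between these submissions was not counted, so nothing is read from the ranges. Within MS3005 the 2 mutants had 3375 and 3808 and the 2 controls 2853 and 3759, and the genotypes overlapped. With submission as a term the Srxn1 difference was 0.13 (standard error 0.33, limma adjusted p = 1), opposite in sign to the pooled one. It was 0.17 (standard error 0.31) for Rcan1 and 0.25 (standard error 0.24) for Hspa14 (limma adjusted p = 1 for each). Within MS3005, Rcan1 had 3946 and 4520.3 in mutants and 3632 and 3889 in controls, and Hspa14 had 3213 and 3368 against 2515 and 3049. The share of all genes whose genotypes separate in this way was not counted, so nothing is read from the separation. With 2 libraries of each genotype, neither difference passed the test.

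The libraries at both ends of the Srxn1 range were also at the ends of the range of Purkinje cell markers. The markers' summed value was 57108 in mutant 103, the library with the lowest Srxn1, and 500832 in control 45, the one with the highest. It ranged from 57108 to 278236 in mutants and from 259503 to 500832 in controls, and in MS3005 from 272038 to 278236 and from 259503 to 462338. Control 45 also had the lowest summed value of the 3 astroglial markers, 108338 against 190907 to 284839 in the other 9 libraries. The part of these markers in the Srxn1 values was not tested. In such bulk samples, fewer cells of a type and less RNA per cell cannot be told apart.

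**Figure D1:**
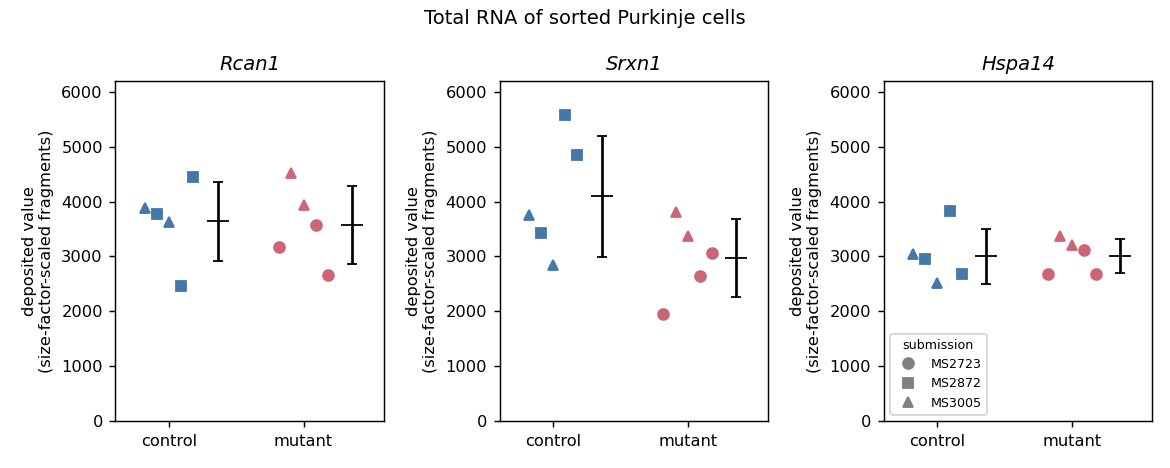
Deposited value (vertical axis, fragments scaled by size factor) of each gene in each sorted library, with the symbol giving the submission number and the bars at the right of each group the mean and SD (n = 5). Rcan1 and Hspa14 overlap between genotypes. The lowest Srxn1 values of mutants are those of MS2723, and the highest values of controls are those of libraries 45 and 48 of MS2872.

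In ribosome-bound RNA without rapamycin, the contrast by which the genes were chosen, each gene was higher in all 3 mutants than in all 3 controls. Rcan1 had 82.4, 84.3 and 92.2 in mutants 1, 2 and 3 and 17.9, 15.7 and 25.1 in controls 1, 2 and 3. Srxn1 had 107, 159 and 126 in mutants and 23.9, 45.8 and 18.9 in controls. Hspa14 had 177, 143 and 152 in mutants and 48.5, 42.0 and 40.6 in controls. The mutants did not overlap the controls for any of the genes, and the mean value in mutants was 4.42 times that of controls for Rcan1, 4.43 times for Srxn1 and 3.59 times for Hspa14. On the log2(value + 1) scale these differences were 2.11, 2.19 and 1.82. Of the 9658 genes tested in this contrast, 8.55% were higher in mutants without overlap and 0.942% were higher past a limma p of 0.01 and a 2-fold change, and nothing is read from this since the contrast chose the genes.

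Few fragments stood behind the TRAP values. The Rcan1 values of mutants 1, 2 and 3 came from 42, 56 and 304 fragments, with Poisson 95% intervals on the scaled values that stayed above those of the 3 controls. Mutant 3, with the small deposited total, gave the most fragments for each gene, 416 for Srxn1 and 500 for Hspa14. The intervals cover counting error only.

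The size of the TRAP differences depended on how the libraries were scaled. Per 1 M of the library's deposited total, Rcan1 was 15.7, 16.4 and 107 in mutants 1, 2 and 3 and 4.28 to 7.05 in controls. Srxn1 was 20.3, 30.9 and 147 in the mutants and 5.33 to 12.7 in controls, and Hspa14 33.6, 27.8 and 176 against 11.4 to 11.7. Mutant 3 was then far above the other 2 mutants, but all 3 stayed above every other TRAP library for each gene. In the deposited values, 1.85% of the 9157 genes had all 3 untreated mutants above every other TRAP library, as the members did. With equal library totals the log2 differences were 2.50 for Rcan1, 2.58 for Srxn1 and 2.21 for Hspa14, while the median of all genes moved from 0.07 to 0.46. Leaving out mutant 3 as well, they were 1.61, 1.75 and 1.38, below those of the deposited scaling, beside a median of -0.36.

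Summed by list, markers of other cell types were also higher in the untreated mutant TRAP libraries. The summed value of the astroglial markers Gfap, Apoe and Sox2 was 490.5, 360 and 380 in mutants 1, 2 and 3 and 66.3 to 153 in controls. It was 51.6 to 157 in mutants with rapamycin and 60.1 to 119 in controls with rapamycin, so that the untreated mutants were above all other TRAP libraries, as for each member. Gfap, the astrocyte filament gene, had 224, 139 and 174 in the mutants and 17.0, 44.5 and 22.8 in the controls, and Apoe, the lipid carrier of astroglia, had 263, 220 and 203 and 59.6, 108 and 32.3. Both were selected by the study on these same libraries. The third marker, Sox2, was low throughout, with 3.92, 1.51 and 2.43 in the mutants and at most 11.1 in the controls, and its groups overlapped. The 9 microglial markers summed to 33.9 to 68.7 in mutants and to at most 6.90 in controls, with 4 of 9 at 0 in all 3 controls. The 4 vascular markers summed to 3.92 to 9.04 in mutants and were all at 0 in controls, and Opalin of oligodendrocytes was 1.51 to 3.92 in mutants and at most 1.25 in controls. The Purkinje cell markers summed to 8310.2 to 8936 in mutants and to 9716 to 11202 in controls. Without Itpr1, which the study listed as changed in this contrast, the other 10 overlapped, at 6884 to 7455 and 6544 to 8236. The median log2 difference of the 11 markers was -0.05, with 4 of them above 0, beside 0.07 over all genes. All of these markers but Sox2 are in the study's list of genes changed in TRAP relative to total RNA, which used these libraries. Their direction is therefore not independent evidence. The part of these cell types in the values of Rcan1, Srxn1 and Hspa14 was not tested.

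**Figure D2:**
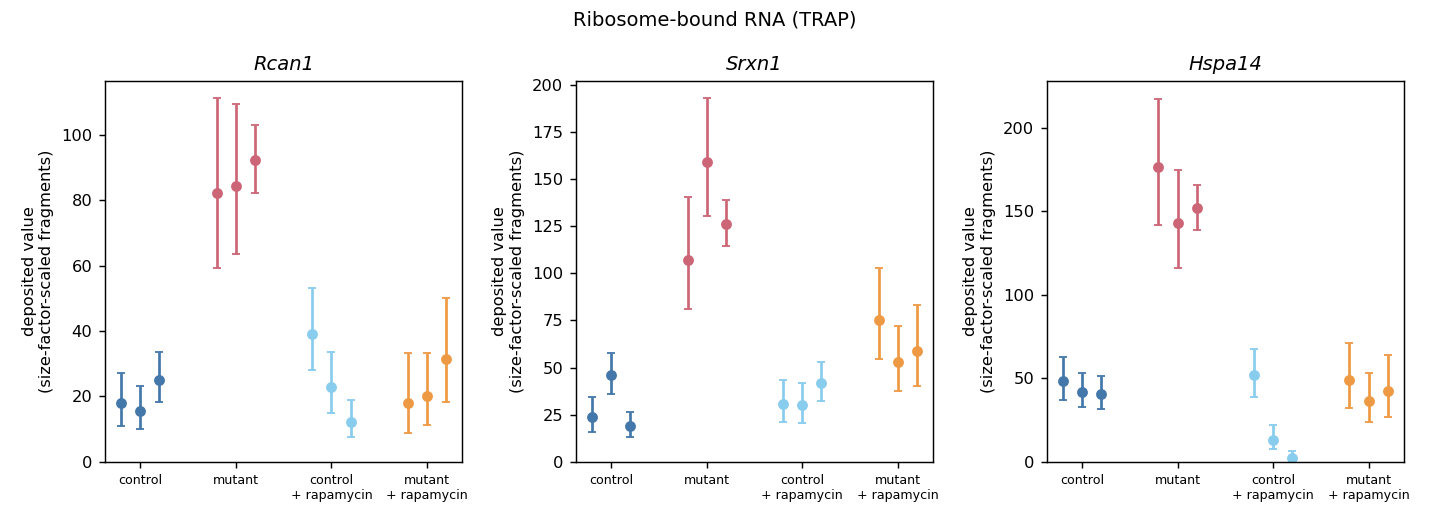
Deposited value (vertical axis, fragments scaled by size factor) of each gene in each TRAP library, with Poisson 95% intervals of the fragments behind it (counting error only). The 3 untreated mutants lie above all other libraries for each gene, and for Hspa14 the controls with rapamycin spread from 2.46 to 51.7.

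**Figure D3:**
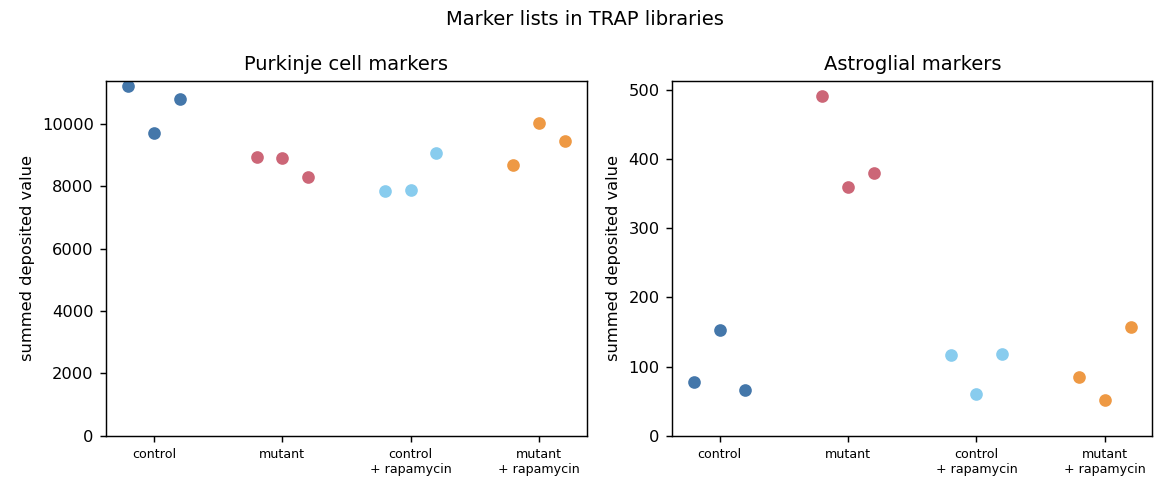
Summed deposited value of the 11 Purkinje cell markers and of the 3 astroglial markers in each TRAP library (1 point per library). The astroglial sum is 360 to 490.5 in untreated mutants and at most 157 in the other 9 libraries.

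With rapamycin, each gene was lower in the mutants than without it. Rcan1 had 18.1, 20.2 and 31.4 in mutants 1, 2 and 3 with rapamycin, Srxn1 75.2, 53.1 and 58.9, and Hspa14 48.8, 36.4 and 42.5. All 3 libraries were below all 3 untreated mutants for each gene. The log2 differences (rapamycin minus untreated) were -1.89 for Rcan1, -1.05 for Srxn1 and -1.86 for Hspa14. They share the untreated mutants that chose the genes, so they carry no test. Of 9664 genes in this contrast, 9.38% were lower without overlap and 1.27% were lower past a limma p of 0.01 and a 2-fold change.

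The members' values in mutants with rapamycin were set beside those of the untreated groups. The mean of Srxn1 in mutants with rapamycin was 62.4 ± 11.5 (SD, n = 3), against 29.5 ± 14.3 (SD, n = 3) in untreated controls and 131 ± 26.3 (SD, n = 3) in untreated mutants. For Rcan1 the means were 23.2 ± 7.14, 19.5 ± 4.90 and 86.3 ± 5.22 (SD, n = 3 each) in the same order. For Hspa14 they were 42.6 ± 6.23, 43.7 ± 4.20 and 157 ± 17.4 (SD, n = 3 each). These means are given with no test, since the genes were chosen by the untreated libraries.

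In control PCs the genes did not share a direction with rapamycin. Rcan1 had 39.3, 23.0 and 12.3 in controls 1, 2 and 3 with rapamycin, on both sides of the untreated values. Srxn1 had 30.6, 30.1 and 41.8, within the untreated range. Hspa14 had 51.7, 13.3 and 2.46, a spread of over 1 order of magnitude. The lowest value rested on 4 fragments (Poisson 95% interval 1.09 to 10.2), and 15 and 54 fragments stood behind the others. The log2 differences were 0.22 for Rcan1, 0.29 for Srxn1 and -1.70 for Hspa14, beside a median of -0.31 over the 8682 genes in this contrast.

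Under rapamycin the genotypes could be compared in 6 libraries that did not choose the genes, although their results were known when the genes were picked, so that the p-values are not independent evidence. None of the 3 genes passed an adjusted limma p of 0.05, against 1 of the 8728 genes tested (0.0115%). For Rcan1 the mutant mean of 23.2 ± 7.14 and the control mean of 24.8 ± 13.6 (SD, n = 3 each) overlapped, with a log2 difference of 0.01 (standard error 0.63, 95% interval -1.50 to 1.52, limma adjusted p = 0.998). The interval reaches past a 2-fold change in either direction, so a difference of that size between the genotypes lies within it.

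Srxn1 was higher in each mutant with rapamycin than in each control with rapamycin, 53.1 to 75.2 against 30.1 to 41.8. Among all genes tested, 7.37% were higher in mutants without overlap. The log2 difference was 0.85 (standard error 0.51, 95% interval -0.37 to 2.07, limma adjusted p = 0.873), which did not pass the test. It was 0.53 above the median of all genes in this contrast, which stood at 0.32. Per 1 M of the library's total, Srxn1 overlapped between genotypes, at 10.1 to 16.8 in mutants and 7.08 to 13.9 in controls.

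Hspa14 had the largest mean difference of the 3 genes under rapamycin, 1.65 (standard error 1.01, 95% interval -0.77 to 4.08, limma adjusted p = 0.873), and it rested on control 3. Mutants had 36.4 to 48.8 and controls 2.46, 13.3 and 51.7, so that the highest library was a control. Without control 3 the difference was 0.66, and without control 1 it was 2.62. The SD of Hspa14 on the log2 scale was 1.96 among these controls and 0.21 among these mutants.

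**Figure D4:**
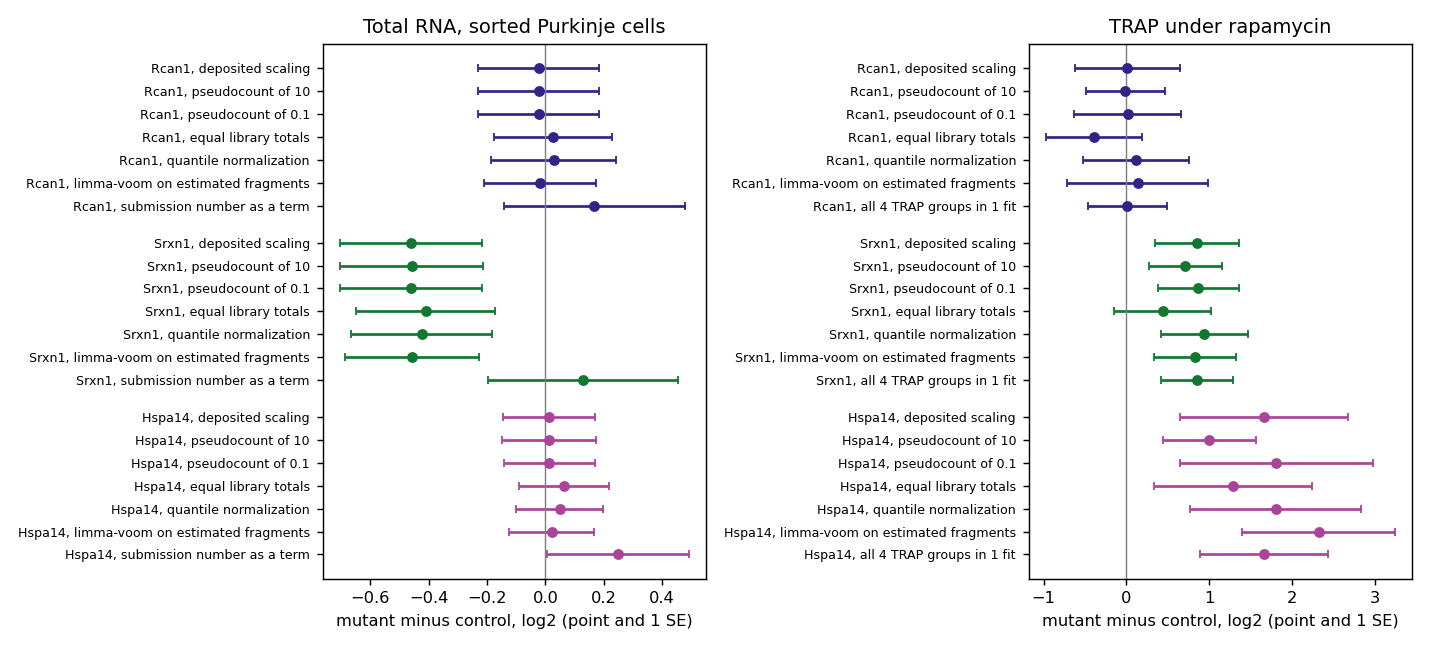
Mutant minus control on the log2 scale (horizontal axis, point and 1 standard error) for each gene in sorted total RNA and in TRAP under rapamycin, for the deposited scaling and for other ways of processing. In total RNA the Srxn1 difference is -0.46 with the deposited scaling and 0.13 with submission as a term.

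Set against total RNA, the change in ribosome-bound RNA (mutant minus control in untreated TRAP, minus the same in sorted PCs) was 2.14 for Rcan1, 2.65 for Srxn1 and 1.81 for Hspa14 on the log2 scale. The median over the 9374 genes with both values was 0.19. Srxn1 had the largest of the 3 values, and it had the lowest difference in total RNA, with a log2 difference of -0.46. With submission as a term in the sorted fit, the values were 1.94, 2.06 and 1.57 in the same order of genes. With the TRAP libraries under rapamycin in place of the untreated ones, the values were 0.03 for Rcan1, 1.31 for Srxn1 and 1.64 for Hspa14, beside a median of 0.52. The sorted libraries carry no rapamycin label, so treatment differs within the latter values. That of Hspa14 also includes the control library with 4 fragments. These values are descriptions, since the study also selected the genes by this measure.

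The genes most like the members were different for each of them. Likeness was the Pearson correlation of log2(value + 1), which is a description over libraries that share their scaling and genotypes. In TRAP it included the untreated libraries that chose the members, and only genes named in the study's lists were compared. Cplx1, Stmn3, Rhobtb2, Arrb1 and Gfap were listed by the study for that same contrast. Their likeness to the members is therefore not independent evidence. Over the 12 TRAP libraries and 900 named genes, Rcan1 was most like Cplx1 (r = 0.93), which encodes a synaptic fusion regulator, then Stmn3 (0.91) and Rhobtb2 (0.90). Srxn1 was most like Arrb1 (0.93), an arrestin gene, Larp1 (0.87), which encodes an mTORC1-dependent regulator of ribosomal protein mRNAs, and the astroglial gene Gfap (0.84). Hspa14 was most like H2afz (0.93), Ptma (0.91) and Arhgap20 (0.89).

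Over the 10 sorted libraries and 1235 named genes, other genes came first. Srxn1 was most like Rabl6 (r = 0.98), Hcfc1r1 (0.98) and Vstm2l (0.96). Rcan1 was most like Shisa4 (0.90), Exosc1 (0.88), which encodes an exosome subunit, and Snx3 (0.87). Hspa14 was most like Fam207a (0.83), Arhgap20 (0.83) and Klhl22 (0.82). Arhgap20 was thus among the 3 nearest to Hspa14 in both tables. Between the members, r in the sorted libraries was 0.04 for Rcan1 and Srxn1, -0.16 for Rcan1 and Hspa14 and 0.55 for Srxn1 and Hspa14.

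The 4 lists of related genes, of 45 genes in all, were set beside the members. The study paired names only with genes that it listed as changed, so no list holds all genes of its pathway. In total RNA, 1 of the 45 rose and 8 fell past an unadjusted limma p of 0.01 and a 2-fold change, against 0.395% and 1.08% of all 16455 genes. The study chose all 9 on these samples, so the count is not independent evidence, and none passed an adjusted p of 0.05 (smallest limma adjusted p = 0.394). Each of the 45 was listed for a change in total RNA or in TRAP relative to it. Directions and medians of the lists in total RNA are therefore not independent evidence either. With submission as a term the count was 1, Fosl2, a gene of an AP-1 subunit.

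Among the genes around calcineurin and calcium, the companions of Rcan1, 3 of 8 fell in total RNA past these thresholds. Among them were Itpr1, the calcium release channel of PCs, with a log2 difference of -3.21, and Orai2, a calcium entry channel, with -1.84. Rcan2, the paralog of Rcan1, had -0.75 (limma adjusted p = 0.486). All 8 were below 0, with a median of -1.22 beside 0.03 over all genes. With submission as a term the median was -0.16, with 6 of 8 below 0, beside -0.02 over all genes, and Itpr1 had -1.21 and Orai2 -0.60. The fall was shared by the 11 Purkinje cell markers, Itpr1 among them. Their median was -2.40, with 10 below 0, and -0.31 with submission as a term. The part of Purkinje cell RNA in the values of the calcium genes was not tested.

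Among the redox genes, the companions of Srxn1, 1 of 9 passed in total RNA. Slc7a11, the cystine transporter and like Srxn1 an NRF2 target, had 2525, 2474, 889.9, 3088 and 3302 in mutants 103, 167, 191, 61 and 74 and 584, 1243, 527, 538 and 465 in the controls, a log2 difference of 1.84 (standard error 0.40, limma adjusted p = 0.394). Mutant 191 lay within the control range. Gclm, a glutathione synthesis gene and another NRF2 target, had -0.36 (limma adjusted p = 0.455), and the other 7 were also below 0. The median of the list was -0.52, and with submission as a term it was -0.050, with 5 of 9 below 0.

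Among the chaperone genes, the companions of Hspa14, 0 of 14 passed these thresholds in total RNA (limma), and 3 had an unadjusted p under 0.05. Hspa5, the chaperone of the endoplasmic reticulum, had 0.19. The median was -0.41, and -0.065 with submission as a term. Hspa5 then had -0.13. Among the genes known to be induced by stress, 5 of 14 fell: Ddit4l by 1.79, Fosl2 by 1.33, Ddit4 by 1.33, Csrnp1 by 1.13 and Errfi1 by 1.05 on the log2 scale. With submission as a term the list's median moved from -0.96 to -0.65, with 12 of 14 below 0. Ddit4 encodes an inhibitor of mTORC1 upstream of TSC1. Its values were 882 to 1482 in the mutants and 1981 to 6237 in the controls (limma adjusted p = 0.394). The study listed Ddit4 on these same samples, and the share of all genes that separate in this way was not counted. Nothing is therefore read from its values.

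In TRAP without rapamycin, 36 of the 45 genes passed the filter on low values, and 1 of them was past the thresholds, against 0.942% of all genes in that direction. It was Msrb1, a methionine sulfoxide reductase gene, with 5.89, 10.5 and 13.4 in mutants and 0, 1.88 and 1.67 in controls (limma adjusted p = 0.292). Msrb1 passed the filter only through the mutants, so nothing is read from this call. The medians were 0.58 for the calcium, 0.88 for the redox, 0.39 for the chaperone and 0.43 for the stress-induced genes, beside 0.07 over all genes. All 7 redox genes tested were above 0, and Gstm7, like Msrb1, passed the filter only through the mutants. All 7, and most genes of the other lists, are in the study's list of genes changed in TRAP relative to total RNA. That list used these libraries, so these medians and directions are not independent evidence.

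Under rapamycin, 34 of the 45 genes were tested, and Orai2 and Msrb1 were past the thresholds, both higher in mutants, against 0.962% of all genes. Both passed the filter on low values only through the mutants, so nothing is read from these calls. Msrb1 had 10.9, 20.2 and 20.3 in mutants and was listed at 0 in all 3 controls. Orai2 had 15.2, 19.5 and 24.8 in mutants and less than 1 fragment in each control. The limma adjusted p was 0.0893 for Orai2 and 0.112 for Msrb1, so neither passed an adjusted p of 0.05. The list medians were 0.20 for the calcium, -0.14 for the redox, 0.27 for the chaperone and 0.65 for the stress-induced genes, beside 0.32 over all genes.

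**Figure D5:**
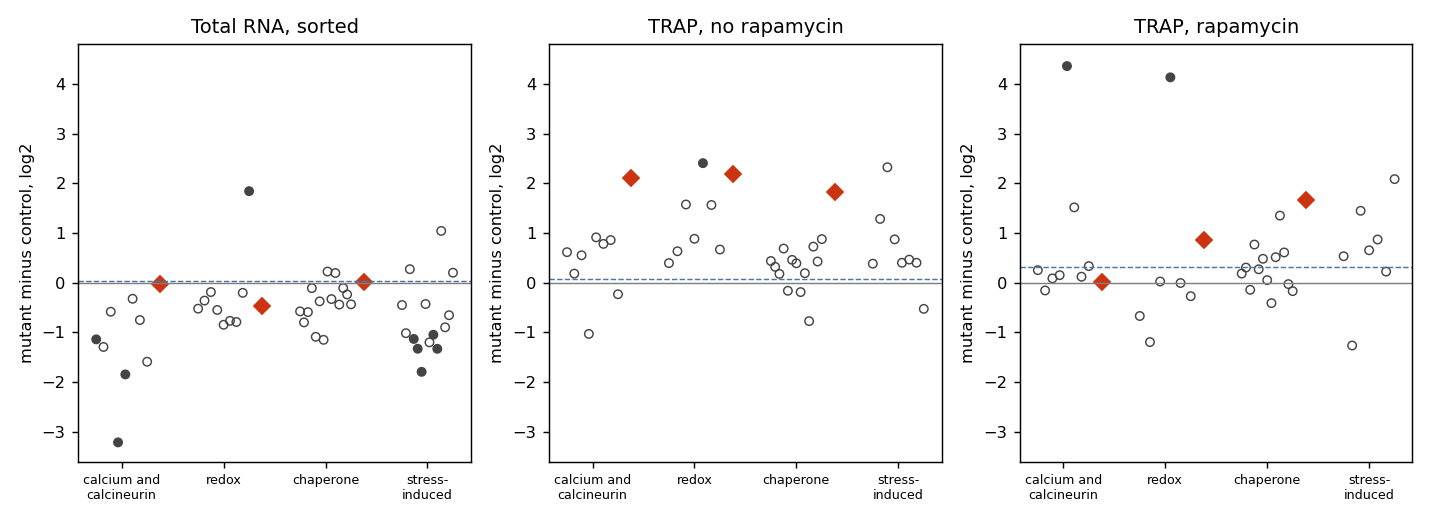
Mutant minus control on the log2 scale (vertical axis) for the genes of the 4 related lists (circles, filled where past a limma p of 0.01 and a 2-fold change) and for Rcan1, Srxn1 and Hspa14 (diamonds, each beside its list), with the dashed line at the median of all genes tested. In total RNA the diamonds lie between -0.46 and 0.01, and in untreated TRAP, the contrast that chose them, between 1.82 and 2.19.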

How the data were processed

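Total RNA of sorted PCs (10 libraries) and TRAP RNA (12 libraries) were measured by RNA-seq. The labels name the SmartSeqv4 kit for all libraries, while the methods give it for sorted PCs only and state that total and TRAP RNA were prepared differently, so values of the 2 tables differ in more than the RNA measured. According to the methods and the submitters' processing notes, reads were trimmed (Trimmomatic 0.39), mapped to GRCm38 (STAR 2.7.0f) and assembled and counted per locus (Cufflinks 2.2.1). The deposited tables hold a signal per locus, for which the authors scaled each library's estimated fragments by its own size factor. The most frequent value between 0.25 and 4 was taken as the value of 1 fragment. Since only 73.7% to 95.9% of values were whole multiples of it (tolerance 0.05 of a fragment), the values were not treated as counts.

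Log2(value + 1) was compared with limma 3.58.1 in R 4.3.3 over all genes whose mean reached 5 in sorted or 2 in TRAP libraries, with the groups compared only, no term for submission, and Benjamini-Hochberg adjustment. A fold change on this scale understates that of low genes. The methods state that cells and TRAP RNA were collected per animal, but 144a and 144b share an animal number. The scripts were tested on simulated data, where the sorted comparison recovered the changed genes and the TRAP comparison under rapamycin missed many of them. The criterion for accepting the scripts was loosened after this was seen, and a member that missed the threshold in TRAP is not shown to be unchanged. The members and the lists were chosen with earlier results of these data known. Named are the members, the genes of the lists, and the 3 named loci with the highest correlation to each member in each table. A gene that this rule selects is not named here. Symbols were taken from the study's supplementary lists, where 1832 of 1985 loci have one, and the deleted gene was not analysed here. Motifs were searched in the RefSeq promoter table. Alternatives were other pseudocounts (10 and 0.1), filters (none, or means of 8 and 5), scalings, limma-voom, submission, averaging 144a and 144b, a replicate block, 1 fit of all TRAP groups, and leaving out each library. Figures used matplotlib 3.10.9.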

Additional observations from a re-analysis of the deposited data

Results flagged for a closer look

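Of 150 groups of 5 sorted libraries (the members and all listed genes in each genotype), 11 had 1 library far from the others, 7.33% where chance gives about 1 in 20, and none of them was a group of Rcan1, Srxn1 or Hspa14. In controls these were Ppia in library 48 (32705), Slc7a11 in 144b (1243), Dnajc27 in 45 (11248), Errfi1 in 48 (2259), Slc1a6 in 176 (2642), Apoe in 45 (89052) and Vav1 in 176 (1079.8). In mutants they were Slc7a11 in library 191 (889.9), Dnajc5 in 103 (8643), Lhx1 in 103 (69.3) and Cd300lg in 167 (1.03). Slc7a11 was flagged in both genotypes, with mutant 191 low and control 144b high, so that the difference in this companion of Srxn1 is less even than its mean.

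Srxn1 was flagged for its values with rapamycin. All 3 controls with rapamycin lay above the mean of the untreated controls on the log2 scale, and all 3 mutants with rapamycin lay below that of the untreated mutants, a gap between the 2 effects of 1.34. The controls with rapamycin stayed within the range of the untreated controls, so no rise was shown in them. This difference was not tested, since the untreated mutants were used to choose the gene.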

How the results depend on the processing

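Leaving out 1 library at a time gave, in sorted PCs, -0.16 to 0.077 for Rcan1, -0.58 to -0.32 for Srxn1 and -0.047 to 0.10 for Hspa14 (log2, mutant minus control), and no limma adjusted p below 0.298. Under rapamycin in TRAP it gave -0.40 to 0.40, 0.71 to 1.0 and 0.66 to 2.62 in the same order, and no adjusted p below 0.328. In untreated TRAP it gave 1.98 to 2.30, 1.93 to 2.55 and 1.73 to 1.90. For rapamycin it gave -0.18 to 0.62, 0.03 to 0.64 and -2.67 to -0.70 in controls and -2.12 to -1.73, -1.19 to -0.90 and -1.97 to -1.76 in mutants.

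The near-zero Rcan1 difference in sorted PCs changed sign with equal library totals (0.027) and quantile normalization (0.029), with submission as a term or MS3005 alone (0.17 each) and with 144a and 144b averaged (0.0014). Srxn1 changed sign with submission as a term and with MS3005 alone (0.13 each), and the count of listed genes past the thresholds fell from 9 to 1. Under rapamycin Rcan1 was -0.015 with a pseudocount of 10 and -0.39 with equal library totals. A pseudocount of 10 gave 1.72 for Rcan1 and 1.63 for Hspa14 in untreated TRAP, -1.56 and -1.67 for rapamycin in mutants, and 1.74 for Rcan1 in TRAP relative to total RNA. Equal library totals gave 2.50 and 2.21 in untreated TRAP, -2.65 for Rcan1, -1.83 for Srxn1 and -2.64 for Hspa14 with rapamycin in mutants (median of all genes -0.80), and 2.15 for Hspa14 relative to total RNA. Equal totals without untreated mutant 3 gave 1.61 for Rcan1 and 1.38 for Hspa14 in untreated TRAP. The cause of the other changes was not tested. The settings of the value relative to total RNA, equal totals without mutant 3, and submission for the lists were chosen after seeing the data.

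Under rapamycin, the TRAP replicate numbers did not pair mutant with control libraries (correlations of deviations -0.03, -0.03 and -0.04, no mutant nearest to the control of its own number). Pairing that involves untreated libraries was not checked. With a replicate block the differences stayed at 0.01, 0.85 and 1.65, with limma adjusted p of 0.917 to 0.999. The stricter filter gave no value for Rcan1 and Hspa14 under rapamycin, because their means were too low. No member passed an adjusted p of 0.05 in either tested comparison under any alternative. Under rapamycin 4 to 68 fragments stood behind a member's TRAP value, and the part of depth and of the spread between libraries in these results was not tested.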
